A study of Mus musculus with 6 samples.

Results

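The myeloid C-type lectin receptors described here are 9 genes, *Clec7a*, *Clec4n*, *Clec4e*, *Clec4d*, *Clec4a1*, *Clec4a2*, *Clec4a3*, *Clec12a* and *Clec10a*. They were chosen by gene symbol among the 49315 genes of the count tables, with *Clec4f* and *Clec1b* left out. Their mRNA was measured in liver F4/80-positive cells of 3 WT and 3 Lpcat3 KOMac mice, with 1 RNA-seq library per mouse. WT mice were littermates from the cross that gave the Lpcat3 KOMac mice, on a C57BL/6N background. Mice of both genotypes had both *Lpcat3* alleles floxed, and all received a high-fat diet (HFD, 60% fat) for 16 weeks. WT mice had no Cre (LysM+/+), and Lpcat3 KOMac mice carried 1 LysMCre allele, which deletes *Lpcat3* in cells that express lysozyme M (*Lyz2*), a group wider than the macrophages of the liver and one in which the deletion is known to be incomplete. *Lpcat3* encodes the enzyme that places polyunsaturated fatty acids into membrane phospholipids. The comparison asks whether the Lpcat3 KOMac genotype went with another level of these receptors. No mice carried LysMCre without floxed *Lpcat3*, so the loss of *Lpcat3* cannot be told apart from the LysMCre allele itself. Nothing in the labels says whether mice with the same number were handled together.

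C-type lectin receptors are membrane proteins of macrophages, monocytes, dendritic cells and neutrophils that bind sugars, lipids or debris of microbes and dead cells. Dectin-type receptors activate the cell through the kinase Syk, either through a motif of their own (*Clec7a*) or through the adaptor FcRγ, the product of *Fcer1g* (*Clec4n*, *Clec4d*, *Clec4e*). Syk then acts through *Card9*, *Bcl10* and *Malt1* to switch on NF-κB and cytokine genes. Others, such as *Clec4a2* and *Clec12a*, carry an inhibitory motif that recruits the phosphatases of *Ptpn6* and *Ptpn11*. In the liver these receptors are carried by Kupffer cells, the resident macrophages, and by monocytes and dendritic cells that arrive from the blood.

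No receptor passed the test between genotypes. With edgeR's quasi-likelihood test and Benjamini-Hochberg adjustment, 0 of the 9 had an adjusted p-value under 0.05, and the same was true of 0 of the 16134 genes tested (0%). The deleted gene itself, *Lpcat3*, was thus not called, at a log2 fold change of -1.56 (edgeR, unadjusted p = 0.0012). Neither was *Lyz2*, at -1.42 (edgeR, unadjusted p = 0.0035). All 9 receptors passed the filter on low counts, and the adjusted p-value of each was 1. At an unadjusted p-value under 0.05, *Clec7a* was higher and *Clec10a* lower in Lpcat3 KOMac cells, against 1.07% of all tested genes that were higher and 1.57% that were lower at this level. In none of the 9 were the mice of one genotype all above those of the other, while 2.29% of all tested genes were without overlap in the higher direction and 5.2% in the lower direction. The median log2 fold change (Lpcat3 KOMac against WT) of the receptors was -0.08, beside -0.04 for all genes tested. Of the receptors, 4 had a fold change above 0 and 5 below, and over all genes tested 40.1% were above 0. Beside the count of 0 over all genes, edgeR gave 426 genes an unadjusted p-value under 0.05, DESeq2 called 12 genes, none of them a receptor, and limma-voom called 0.

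Total counts were between 44954224 and 71392812 per library, and the 9 receptors together took between 82213 and 103111 of these. The fewest counts of any receptor in a library were 70, for *Clec4e*. *Lpcat3* (chr6:124663027-124704418 of GRCm38) was at 85, 66.2 and 61.2 CPM in WT mice and 19.5, 33.3 and 19.4 CPM in Lpcat3 KOMac mice, without overlap, as the labels have it. CPM are counts scaled to the size of the library, here with edgeR's TMM factors. The level of *Lyz2* was 4695, 7659 and 6285 CPM in WT mice. In Lpcat3 KOMac mice it was 2452, 1533 and 2980 CPM, without overlap. The summed CPM of 5 hepatocyte transcripts was between 1675 and 18557, highest in WT mouse 1 and Lpcat3 KOMac mouse 2, so both genotypes held 1 library with much hepatocyte RNA. The rest were not balanced. WT mice 2 and 3 were at 1705 and 1675 CPM, and Lpcat3 KOMac mice 1 and 3 at 4340 and 4196 CPM. The Kupffer cell markers were abundant in all 6 libraries (sum of 8 genes 19575 to 37078 CPM). Markers of other myeloid cells were uneven. Of the neutrophil list *Ly6g* had at most 3 counts while *Csf3r* reached 155 CPM. Of the monocyte list *Ly6c2* was at most at 1.39 CPM while *Ccr2* was at 17.5 to 92.5 CPM. *Fn1* of the same list was at 82.1 to 482 CPM, highest in WT mouse 1, the library richest in hepatocyte transcripts. The F4/80-positive cells are a mixture, and in such bulk RNA fewer cells of a type and less RNA per cell cannot be told apart.

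*Clec7a* (ENSMUSG00000079293, chr6:129461591-129472779, minus strand), which encodes Dectin-1, the receptor of fungal β-glucan, had the widest gap among the abundant receptors. Its level was 486, 451 and 613 CPM in WT mice 1 to 3 and 694, 707 and 594 CPM in Lpcat3 KOMac mice 1 to 3. Lpcat3 KOMac mice 1 and 2 were above every WT mouse, and the groups overlapped only because WT mouse 3 was above Lpcat3 KOMac mouse 3. WT mice averaged 516 ± 85.1 CPM (SD, n = 3) and Lpcat3 KOMac mice 665 ± 62.0 CPM (SD, n = 3). The log2 fold change was 0.37 with a standard error (SE) of 0.15 and a 95% interval of 0.0033 to 0.73 (edgeR, unadjusted p = 0.0485). By the exact permutation test, two-sided, p was 0.2, where 3 mice against 3 cannot go below 0.1. Without WT mouse 2 the fold change was 0.28, and without WT mouse 3 it was 0.51. GENCODE lists the gene as a polymorphic pseudogene, a class for genes that are intact in some strains only.

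Some markers of sinusoidal endothelium had a like pattern over the mice. *Kdr*, the VEGF receptor of endothelium, was at 68.6, 62.3 and 95.7 CPM in WT and at 169, 131 and 91.5 CPM in Lpcat3 KOMac mice, so that again WT mouse 3 was above Lpcat3 KOMac mouse 3. Of the 8 endothelial markers 7 had a log2 fold change above 0, and *Kdr*, *Gpr182* and *Ptprb* had an unadjusted p-value under 0.05 (edgeR), while *Stab2* was at 0.02 and *Cdh5* at -0.22. Over all genes tested, 1.07% were higher at this p-value. The summed level of the 8 was 1442 to 1905 CPM in WT and 1558 to 1980 CPM in Lpcat3 KOMac mice. In every library *Cdh5* had the largest share of this sum, followed by *Stab2*. The remaining markers, *Kdr*, *Ptprb*, *Oit3*, *Gpr182*, *Lyve1* and *Clec4g*, had log2 fold changes of 0.49 to 0.86. Of the 9 monocyte markers 6 were above 0 and 3 below, with sums, in which *Fn1* had the largest share in every library, of 193 to 629 CPM in WT and 312 to 536 CPM in Lpcat3 KOMac mice. *Fn1* was at 482, 82.1 and 174 CPM in WT and at 348, 289 and 207 CPM in Lpcat3 KOMac mice. Its highest value was in WT mouse 1, also the highest in hepatocyte transcripts. The part of hepatocytes in *Fn1* and in these sums was not tested. *Chil3* (1.70) and *F13a1* (1.05) had an unadjusted p-value under 0.05 (edgeR), and *Chil3* was higher without overlap, at 1.04 to 2.12 CPM in WT and 2.43 to 8.77 CPM in Lpcat3 KOMac mice. Of all genes tested, 1.07% were higher at this p-value and 2.29% were higher without overlap. The part of endothelial cells and monocytes in the level of *Clec7a* was not tested.

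*Clec4n* (ENSMUSG00000023349, chr6:123229843-123247021, plus strand), which encodes Dectin-2, a receptor of fungal mannan, was the steadiest receptor. It was at 208, 239 and 242 CPM in WT mice and at 239, 255 and 262 CPM in Lpcat3 KOMac mice. WT mouse 1 was the lowest, and the other values lay close together across genotypes. The average of WT mice was 230 ± 18.6 CPM (SD, n = 3) and that of Lpcat3 KOMac mice 252 ± 12.1 CPM (SD, n = 3), which is 0.13 higher on the log2 scale (SE 0.09). The 95% interval of -0.10 to 0.36 holds neither a doubling nor a halving. The fold change was 0.07 without WT mouse 1 and 0.21 without Lpcat3 KOMac mouse 1. Its spread between mice of one genotype was 0.10 on the log2 scale, smaller than for most genes (the median of all genes tested was 0.27).

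*Clec4d* and *Clec4e* encode MCL and Mincle, partner receptors of mycobacterial cord factor that are induced in inflamed macrophages. *Clec4d* (ENSMUSG00000030144, chr6:123262111-123275265, plus strand) had levels of 5.66, 6.27 and 8.07 CPM in WT mice and 9.45, 4.32 and 9.88 CPM in Lpcat3 KOMac mice. Lpcat3 KOMac mice 1 and 3 were the highest of all 6 and mouse 2 of the same genotype the lowest. WT mice averaged 6.67 ± 1.25 CPM (SD, n = 3) and Lpcat3 KOMac mice 7.89 ± 3.09 CPM (SD, n = 3), with a log2 fold change of 0.24 (95% interval -0.62 to 1.11). Leaving out Lpcat3 KOMac mouse 2 brought this to 0.56, and leaving out mouse 3 to 0.07.

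*Clec4e* (ENSMUSG00000030142, chr6:123281789-123289870, minus strand) was the rarest and most uneven receptor. It had 104, 70 and 208 counts in WT mice and 285, 111 and 129 counts in Lpcat3 KOMac mice, which gave 1.60, 1.40 and 4.55 CPM and 4.91, 2.14 and 2.74 CPM. One mouse of each genotype, WT mouse 3 and Lpcat3 KOMac mouse 1, stood above the rest. Over the 6 mice the highest value was 3.51 times the lowest, and the spread within a genotype was 0.78 on the log2 scale. The average of WT mice was 2.52 ± 1.76 CPM (SD, n = 3) and that of Lpcat3 KOMac mice 3.26 ± 1.46 CPM (SD, n = 3), and the log2 fold change of 0.38 had a 95% interval of -1.04 to 1.80. It was 1.12 without WT mouse 3 and 0.0034 without Lpcat3 KOMac mouse 1. A difference of up to 2-fold in either direction was thus not detectable for *Clec4e* with these mice.

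Monocytes and neutrophils are known to carry *Clec4e* and *Clec4d*. *Ccr2*, the chemokine receptor of recruited monocytes, was at 31.2, 17.5 and 92.5 CPM in WT and at 71.6, 58.6 and 51.2 CPM in Lpcat3 KOMac mice, so WT mouse 3 and Lpcat3 KOMac mouse 1 were the highest of their genotype for *Ccr2* as for *Clec4e*. Of 10 neutrophil markers 7 were tested, 6 of them above 0, with sums of 82.1 to 159 CPM in WT and 83.7 to 144 CPM in Lpcat3 KOMac mice. Most of these sums was *Csf3r*, with a log2 fold change of -0.17. *S100a8*, an abundant transcript of neutrophils, was at 0.785, 0.719 and 0.875 CPM in WT and 0.947, 1.60 and 2.19 CPM in Lpcat3 KOMac mice, low but higher without overlap (0.99, unadjusted p = 0.0353, edgeR), and *S100a9* was at 1.01 (unadjusted p = 0.0525, edgeR). Over all genes tested, 2.29% were higher without overlap. The part of monocytes and neutrophils in the levels of *Clec4e* and *Clec4d* was not tested.

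**Figure D1:**
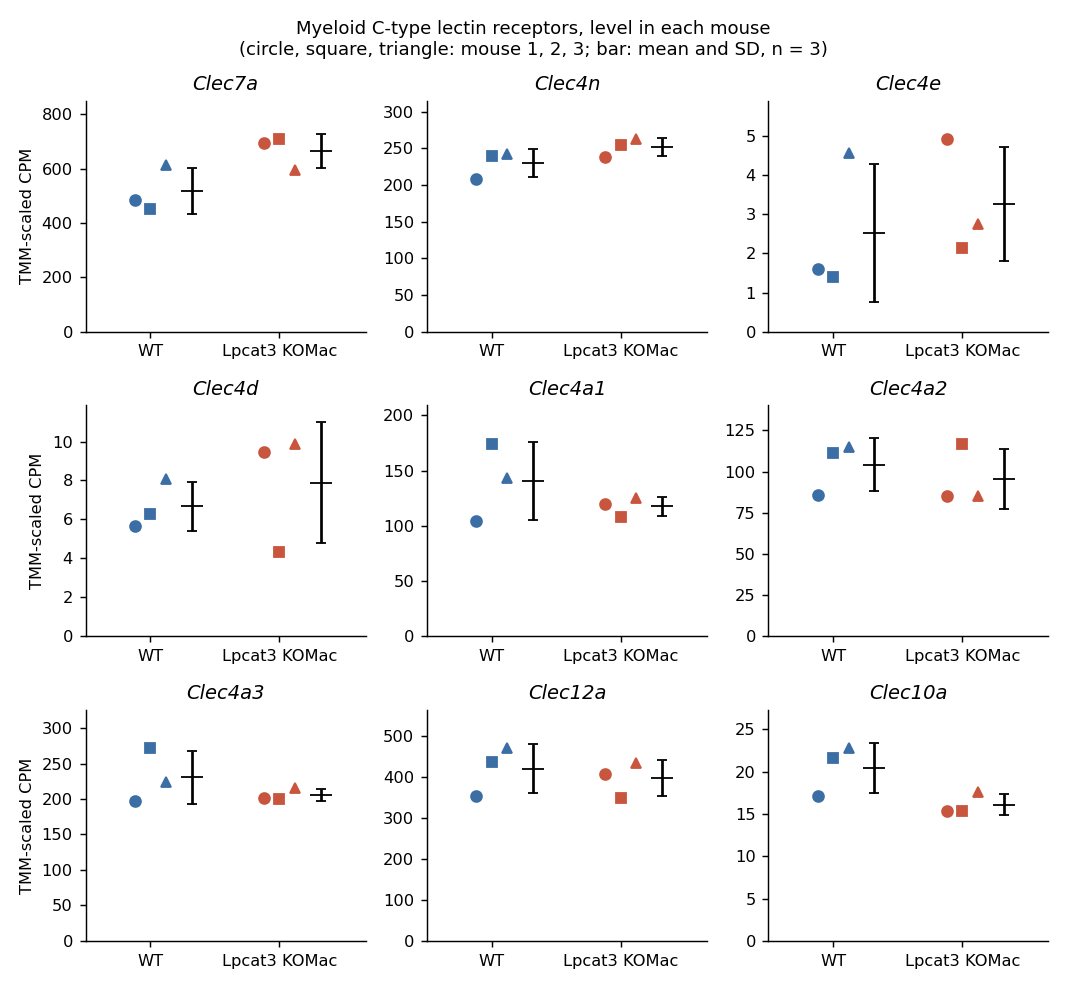
Level of each of the 9 receptors in every mouse, in TMM-scaled CPM on an axis that starts at 0 (circle, square and triangle are mice 1, 2 and 3, the bar is the mean and SD of 3 mice). The genotypes overlap in every panel, for *Clec7a* only by WT mouse 3 (613 CPM) and Lpcat3 KOMac mouse 3 (594 CPM).

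The 3 genes of the Dcir group had lower means in Lpcat3 KOMac cells, within the spread between mice. *Clec4a1* (ENSMUSG00000049037, chr6:122921848-122934619, plus strand) had levels of 105, 174 and 143 CPM in WT mice and 120, 108 and 125 CPM in Lpcat3 KOMac mice. All of the Lpcat3 KOMac values lay between those of WT mice 1 and 3. WT mice averaged 141 ± 35.0 CPM (SD, n = 3) and Lpcat3 KOMac mice 118 ± 8.37 CPM (SD, n = 3), with a log2 fold change of -0.26 (95% interval -0.73 to 0.22). It was -0.43 without WT mouse 1 and -0.07 without WT mouse 2.

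*Clec4a3* (ENSMUSG00000043832, chr6:122952515-122969875, plus strand) had a similar pattern, with 197, 271 and 223 CPM in WT and 202, 200 and 216 CPM in Lpcat3 KOMac mice. The WT mice again spanned the Lpcat3 KOMac mice, with WT mouse 1 the lowest and WT mouse 2 the highest of all 6. The average of WT mice was 231 ± 37.7 CPM (SD, n = 3) and that of Lpcat3 KOMac mice 206 ± 8.70 CPM (SD, n = 3), with a log2 fold change of -0.16 (95% interval -0.49 to 0.17). It was -0.26 without WT mouse 1 and -0.03 without WT mouse 2. *Clec4a2* (ENSMUSG00000030148, chr6:123106428-123143999, plus strand), which encodes the inhibitory receptor Dcir1, was at 85.7, 111 and 115 CPM in WT and at 85.1, 117 and 85.0 CPM in Lpcat3 KOMac mice. Here Lpcat3 KOMac mouse 2 was the highest of all 6 and the other Lpcat3 KOMac mice stood beside WT mouse 1. WT mice averaged 104 ± 16.0 CPM (SD, n = 3) and Lpcat3 KOMac mice 95.7 ± 18.3 CPM (SD, n = 3), with a log2 fold change of -0.12 (95% interval -0.57 to 0.32). It was -0.27 without Lpcat3 KOMac mouse 2 and -0.0018 without Lpcat3 KOMac mouse 1. Without the pair of libraries rich in hepatocyte RNA, a setting added after seeing the data, it was -0.41 (edgeR, unadjusted p = 0.0035, adjusted p = 0.139). At that setting 1767 of 16126 genes tested had an unadjusted p-value under 0.05 (edgeR). Of the 50-base stretches in the longest coding transcript of *Clec4a2* 8.19% also occur in transcripts of other genes, 114 of 198 of them in *Clec4a4*, which had at most 64 counts.

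*Clec12a* (ENSMUSG00000053063, chr6:129342691-129365303, plus strand) encodes an inhibitory receptor that senses uric acid crystals of dead cells. It was at 354, 437 and 469 CPM in WT and at 406, 349 and 434 CPM in Lpcat3 KOMac mice. The genotypes were interleaved, averaging 420 ± 59.4 CPM (SD, n = 3) for WT and 396 ± 43.6 CPM (SD, n = 3) for Lpcat3 KOMac mice. Its log2 fold change of -0.08 (95% interval -0.44 to 0.27) was the only one of the 9 whose sign turned under an alternative, to 0.0037 with total counts alone, 0.0028 without WT mouse 3 and 0.02 without Lpcat3 KOMac mouse 2.

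*Clec10a* (ENSMUSG00000000318, chr11:70156197-70170834, plus strand) encodes MGL1, a receptor of galactose-type sugars known from alternatively activated macrophages and dendritic cells. Its level was 17.1, 21.6 and 22.8 CPM in WT and 15.4, 15.4 and 17.6 CPM in Lpcat3 KOMac mice. WT mice 2 and 3 were above every Lpcat3 KOMac mouse, and the groups overlapped only because Lpcat3 KOMac mouse 3 was just above WT mouse 1. The average of WT mice was 20.5 ± 2.96 CPM (SD, n = 3) and that of Lpcat3 KOMac mice 16.1 ± 1.25 CPM (SD, n = 3). The log2 fold change of -0.35 had a standard error of 0.14 and a 95% interval of -0.69 to -0.00082 (edgeR, unadjusted p = 0.0496). By the exact permutation test, two-sided, p was 0.2. Leaving out single mice put the fold change between -0.46 and -0.27. Its transcript shares 10.6% of its 50-base stretches with *Mgl2*, its neighbour and paralog, which had at most 20 counts.

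The Kupffer cell markers were lower on average in the Lpcat3 KOMac libraries, all 8 with a log2 fold change below 0 and 2 of them, *Clec4f* and *Folr2*, at an unadjusted p-value under 0.05 (edgeR). Of all genes tested, 1.57% were lower at this p-value. Their sum was 26549 to 37078 CPM in WT and 19575 to 28918 CPM in Lpcat3 KOMac mice, with the lowest value in Lpcat3 KOMac mouse 2. Of the 10 dendritic cell markers 6 were above 0 and 4 below, with sums of 237 to 310 CPM in WT and 276 to 302 CPM in Lpcat3 KOMac mice. Most of the sum in every library was *Wdfy4*. *Cd209a* was at most at 0.38 CPM, *Flt3* at 0.853 CPM and *Xcr1* at 2.06 CPM in any library, while *Clec9a* reached 51.3 CPM. The part of either cell type in the levels of *Clec10a* and the Dcir group was not tested.

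**Figure D2:**
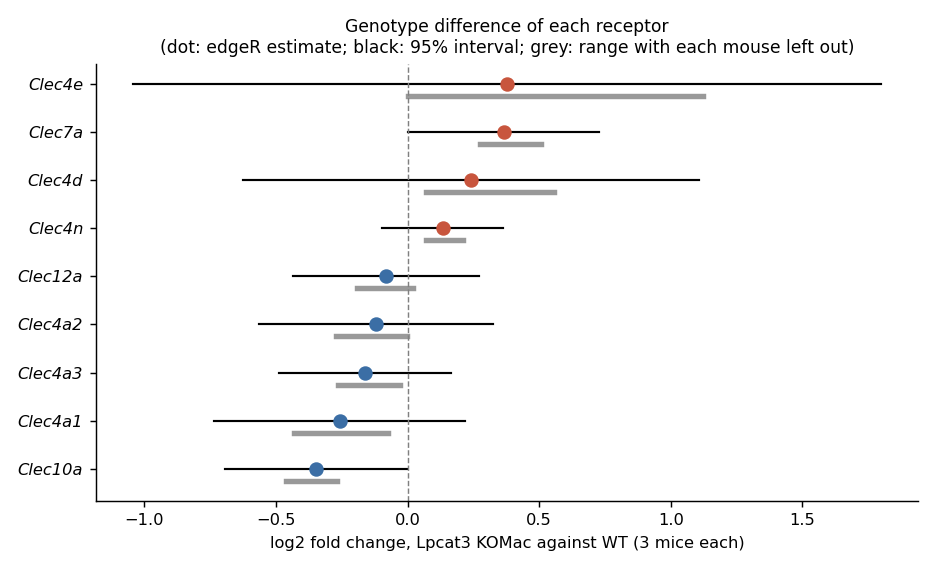
Log2 fold change of each receptor, Lpcat3 KOMac against WT (dot), with its 95% interval from edgeR (black line) and the range of values when each mouse is left out in turn (grey bar). *Clec7a* and *Clec10a* are the 2 whose interval lies just to one side of 0, and *Clec4e* has the widest, from -1.04 to 1.80.

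Sorted by role, the activating receptors *Clec7a*, *Clec4n*, *Clec4d* and *Clec4e* all had a log2 fold change above 0, and the other 5 all had one below 0. This split by sign was found after the values were seen and has no test. To show it per mouse, each receptor's log2 CPM was set against its own mean over the 6 mice. The mean deviation of the 4 activating receptors was -0.36, -0.35 and 0.27 in WT and 0.40, -0.15 and 0.18 in Lpcat3 KOMac mice, and WT mouse 3 was above Lpcat3 KOMac mice 2 and 3. For the other 5 it was -0.18, 0.26 and 0.19 in WT and -0.13, -0.11 and -0.04 in Lpcat3 KOMac mice, and WT mouse 1 was the lowest of all. Activating minus other was -0.18, -0.61 and 0.08 in WT and 0.53, -0.04 and 0.22 in Lpcat3 KOMac mice, so this contrast also overlapped between genotypes, through WT mouse 3 and Lpcat3 KOMac mouse 2.

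**Figure D3:**
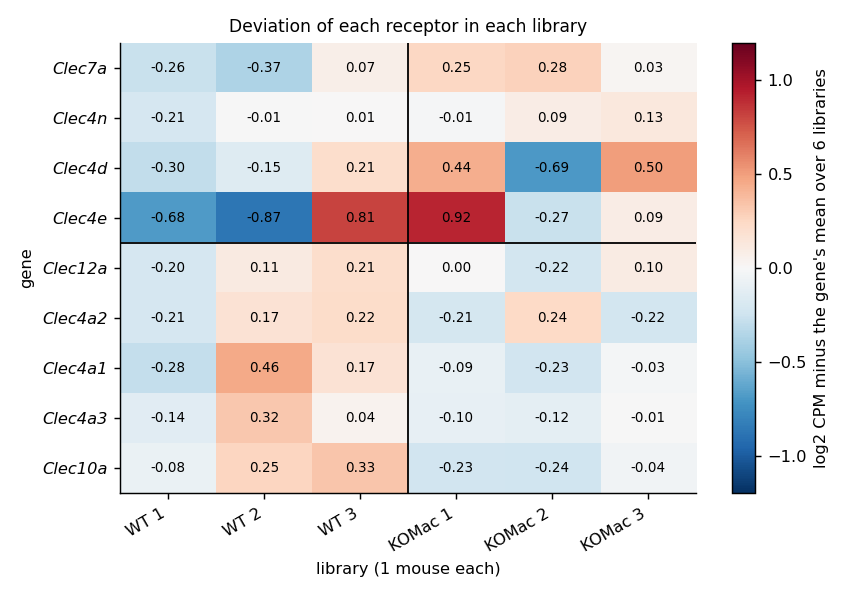
Deviation of each receptor in each library, as log2 CPM minus the gene's mean over the 6 libraries (red above, blue below, with the black lines between genotypes and between activating and other receptors). WT mouse 3 is above the mean for all 9 receptors and WT mouse 1 below it for all 9, while *Clec4d* in Lpcat3 KOMac mouse 2 (-0.69) runs against the other 2 mice of its genotype.

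Between receptors, levels were compared as CPM per kilobase of the length that the count table gives for each gene, taking all 6 mice together. *Clec7a* was the highest at 224 ± 39.9 CPM per kb (SD, n = 6), followed by *Clec4n* at 170 ± 13.1 and *Clec4a3* at 165 ± 21.03. *Clec7a* was above *Clec4n* in 6 of 6 mice although their ranges overlapped, and *Clec4n* was above *Clec4a3* in 4 of 6, so the order of the last pair was not clear. *Clec4a1* at 82.9 ± 16.7 and *Clec12a* at 73.8 ± 8.74 CPM per kb overlapped as well, with *Clec4a1* above in 6 of 6 mice. *Clec4a2* stood apart from its neighbours at 34.1 ± 5.49 CPM per kb.

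The remaining receptors were much lower. *Clec10a* was at 6.31 ± 1.09 and *Clec4d* at 4.55 ± 1.38 CPM per kb, with *Clec10a* above in 4 of 6 mice. *Clec4e*, at 0.582 ± 0.303 CPM per kb, was below every other receptor in all 6 mice. Set among the 16134 genes tested, 98.8% had a lower level per kilobase than *Clec7a* and 21.7% a lower one than *Clec4e*. The order depends on the length used, since with the longest coding transcript *Clec12a* was at 163 and *Clec4a1* at 82.9 CPM per kb, and *Clec12a* was then above *Clec4a1* in 6 of 6 mice. That length was chosen after seeing the data.

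**Figure D4:**
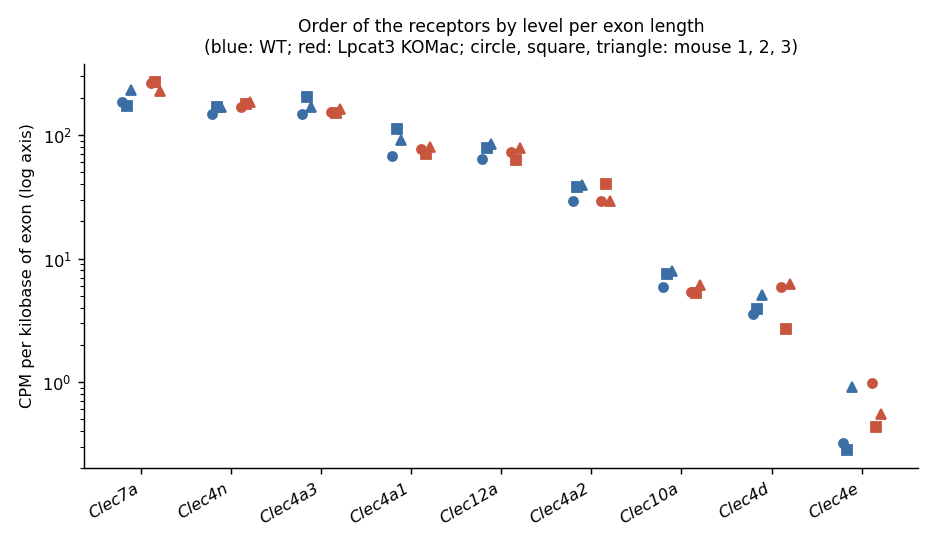
Level of each receptor per kilobase of gene length in every mouse, in CPM per kb on a log axis, sorted by the mean over 6 mice. *Clec7a*, *Clec4n* and *Clec4a3* lie at or above 147 CPM per kb in every mouse, and *Clec4e* lies below 1 in every mouse.

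Of the summed level per kilobase of all 9 receptors, which was 649 to 801 in WT and 773 to 780 CPM per kb in Lpcat3 KOMac mice, *Clec7a* made up 28.4%, 21.8% and 29.0% in WT and 34.0%, 34.4% and 29.1% in Lpcat3 KOMac mice. These shares did not overlap between genotypes, though WT mouse 3 and Lpcat3 KOMac mouse 3 were almost equal. The share of *Clec10a* was 0.911%, 0.949% and 0.981% in WT and 0.686%, 0.679% and 0.783% in Lpcat3 KOMac mice, without overlap. The shares of all the other receptors overlapped, and in CPM *Clec7a* and *Clec10a* overlapped as well. Shares of the same sum are tied to each other. These have no test and no like share over all genes to set beside them. *Clec4n* kept 21.3% to 22.6% in WT and 21.7% to 23.9% in Lpcat3 KOMac mice.

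Of the 9 genes, 8 lie in 2 clusters on chromosome 6, the chromosome of *Lpcat3*. The first spans 368 kb (chr6:122921848-123289870) and holds *Clec4a1*, *Clec4a3*, *Clec4a2*, *Clec4n*, *Clec4d* and *Clec4e* in this order, 1.38 to 1.74 Mb from *Lpcat3*. The second spans 130 kb (chr6:129342691-129472779) with *Clec12a* and *Clec7a* at its ends, 4.68 to 4.80 Mb from *Lpcat3* on the other side. Along the first cluster the log2 fold changes were -0.26 for *Clec4a1*, -0.16 for *Clec4a3*, -0.29 for *Clec4a4*, -0.03 for *Clec4b1* and -0.12 for *Clec4a2*, and then 0.13 for *Clec4n*, 0.24 for *Clec4d* and 0.38 for *Clec4e*. The sign thus changed once along the cluster, between *Clec4a2* and *Clec4n*, and no gene of it had an unadjusted p-value under 0.05. In the second, *Clec12b* (0.46), *Clec1b* (-0.11), *Clec9a* (-0.08) and *Clec1a* (0.54) lie between the 2 receptors and had fold changes on both sides of 0. Both genotypes carry the floxed *Lpcat3* alleles. Within 10 Mb of *Lpcat3*, 212 other genes were tested, with a median log2 fold change of -0.04. At an unadjusted p-value under 0.05 (edgeR) 4 of them were higher and 3 lower, *Clec7a* being among the 4. Over all genes tested, 1.07% were higher and 1.57% lower at this p-value.

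**Figure D5:**
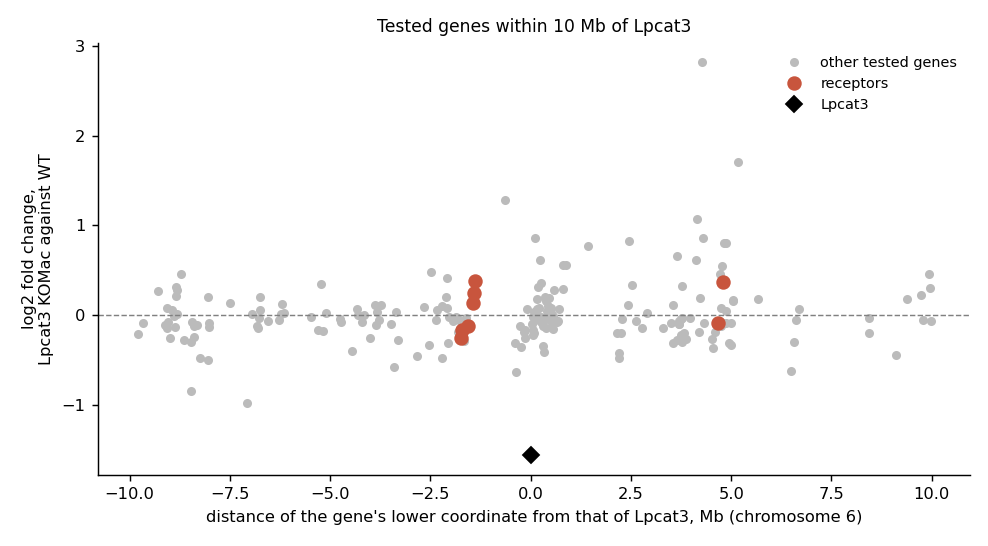
Log2 fold change (Lpcat3 KOMac against WT) of every tested gene within 10 Mb of *Lpcat3* by its distance from *Lpcat3* in Mb (grey dots other genes, red dots the receptors, black diamond *Lpcat3* at -1.56). In the cluster to the left of *Lpcat3* 3 receptors lie above 0 (0.13, 0.24 and 0.38) and 3 below, and in the one to the right *Clec7a* lies above 0 (0.37) and *Clec12a* below (-0.08).

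The sequence just upstream of the start is given for 3 of these neighbours: the receptor with the widest gap among the abundant ones, the most uneven one, and an inhibitory one of the Dcir group. PU.1 is a factor that binds many myeloid promoters. A single form of its site, GAGGAA, or TTCCTC on the other strand, was searched in the 250 bases before each start (RefSeq, GRCm38.p6). Other or shorter forms of the site were not searched. Capitals mark the matches, and each sequence is written 5′ to 3′ on the strand of its gene. The windows are chr6:129472780-129473029 (minus strand) for *Clec7a*, chr6:123289872-123290121 (minus strand) for *Clec4e* and chr6:123122440-123122689 (plus strand) for *Clec4a2*.
Clec7a: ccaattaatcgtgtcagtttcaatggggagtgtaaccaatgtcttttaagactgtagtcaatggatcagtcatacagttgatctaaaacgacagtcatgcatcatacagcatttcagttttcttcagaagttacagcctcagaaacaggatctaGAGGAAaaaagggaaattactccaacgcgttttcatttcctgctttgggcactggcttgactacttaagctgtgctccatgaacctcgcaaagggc
Clec4e: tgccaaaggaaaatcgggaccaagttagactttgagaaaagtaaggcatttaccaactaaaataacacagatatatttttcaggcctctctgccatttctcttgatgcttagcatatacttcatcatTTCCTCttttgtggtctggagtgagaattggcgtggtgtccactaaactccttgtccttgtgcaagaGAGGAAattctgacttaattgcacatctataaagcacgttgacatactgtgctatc
Clec4a2: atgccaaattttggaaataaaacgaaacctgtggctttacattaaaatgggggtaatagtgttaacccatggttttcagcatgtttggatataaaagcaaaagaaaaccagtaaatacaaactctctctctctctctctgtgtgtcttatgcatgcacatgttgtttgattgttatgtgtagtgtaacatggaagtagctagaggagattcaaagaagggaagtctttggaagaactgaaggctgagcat

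*Clec7a* held 1 match, 90 bases before its start, and *Clec4e* held 2, the nearer 50 bases before its start, while *Clec4a2* held none. For *Clec4a2* and *Clec12a* the RefSeq start used lies inside the gene span given above. The bases before the outer end of that span were not searched for either. Of the 7 receptors with an entry in the promoter table, 6 had a match in at least 1 window, counting 9 windows in all, of which 7 held one. *Clec12a*, *Clec4a1*, *Clec4a3* and *Clec4d* were the others with a match, and *Clec4n* and *Clec10a* had no entry. The windows of *Clec7a* overlap and hold the same match, so it is counted in both. Of all 32851 promoter windows, 23.3% held the motif, a share of windows that cannot be set beside the 6 of 7 receptors. A match is a run of letters and not a measured binding site. Both the most abundant receptor per kilobase and the rarest had one.

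The other genes of the pathway were not called either. Of 20 genes of activating signalling (*Syk*, *Card9* and their partners), all tested, 0 had an unadjusted p-value under 0.05, and 7 were above 0 and 13 below, with a median log2 fold change of -0.04. The 3 of smallest p were the adaptors *Tyrobp* (-0.24, SE 0.10) and *Fcer1g* (-0.19, SE 0.12) and the NF-κB scaffold *Bcl10* (-0.19, SE 0.08). *Tyrobp* was at 735, 853 and 752 CPM in WT and 661, 610 and 705 CPM in Lpcat3 KOMac mice, without overlap. *Bcl10* was at 61.8, 63.4 and 61.6 CPM in WT and 58.3, 50.2 and 55.0 CPM in Lpcat3 KOMac mice, also without overlap, and with *Tyrobp* it made up the 2 of 20 genes that were lower without overlap, against 5.2% of all genes tested. *Fcer1g*, the partner of *Clec4n*, *Clec4d* and *Clec4e*, was at 406, 492 and 513 CPM in WT and 411, 388 and 435 CPM in Lpcat3 KOMac mice and overlapped.

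Of 10 genes of inhibitory signalling, 0 had an unadjusted p-value under 0.05, and 4 were above 0 and 6 below. The 3 of smallest p were *Cblb* (0.24, SE 0.13), which encodes a ubiquitin ligase that acts on Syk, *Ptpn6* (-0.17, SE 0.15) and *Sh2d1b1* (0.97, SE 0.91). Of 17 genes that activating receptors induce, 14 were tested and 0 had an unadjusted p-value under 0.05, with 7 above 0 and 7 below. *Il6* was at 1.69, 4.25 and 3.50 CPM in WT and 2.14, 0.617 and 0.850 CPM in Lpcat3 KOMac mice, a log2 fold change of -1.38 with a 95% interval of -2.85 to 0.08. *Il1b* had a log2 fold change of -0.63 (SE 0.51) and *Egr2* one of 0.50 (SE 0.42). The wide intervals of these cytokine genes leave room for a change of more than 2-fold in *Il6* and *Il1b*.

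Of 33 other C-type lectins, 32 were in the tables and 28 were tested, 13 above 0 and 15 below, with a median log2 fold change of -0.06 and 0 called. At an unadjusted p-value under 0.05 (edgeR) 1 was higher and 2 were lower, against 1.07% and 1.57% of all genes tested. Without overlap 1 was higher and 2 were lower as well, against 2.29% and 5.2% of all genes tested. *Clec4f*, the lectin that marks Kupffer cells, was at 9170, 12171 and 8772 CPM in WT and 7360, 6449 and 8331 CPM in Lpcat3 KOMac mice, without overlap, with a log2 fold change of -0.44 (SE 0.17). *Clec2d*, the ligand of the receptor NKR-P1B on natural killer cells, was at 82.0, 79.7 and 82.6 CPM in WT and 67.2, 66.3 and 70.1 CPM in Lpcat3 KOMac mice, also without overlap (-0.26, SE 0.07). *Clec14a*, an endothelial gene, was at 32.4, 17.1 and 28.3 CPM in WT and 61.4, 61.7 and 33.7 CPM in Lpcat3 KOMac mice, without overlap (1.01, SE 0.34). No one direction was shared by the family.

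For each receptor, the genes whose log2 CPM ran most alike over the 6 libraries were looked up among 10500 genes with a mean of at least 5 CPM. For *Clec7a* these were *Hdac7* (Pearson's r = 0.983) and *Kit* (0.978), and for *Clec4n* *Agbl5* (0.992) and *Cd200r1* (0.981). *Clec4a1* ran with *Ptpn6* (0.998), the phosphatase gene of the inhibitory list, and *Esrra* (0.996), and *Clec4a3* with *Atf6b* (0.992) and *Lyn* (0.989), the latter a kinase of the activating list. *Clec12a* ran with *Anks3* (0.998) and *Pus7l* (0.997), *Clec4a2* with *Lig1* (0.986) and *Tipin* (0.984), and *Clec10a* with *Ccdc12* (0.9998) and *Cpsf3* (0.991). For the rare receptors they were *Micall2* (0.996) and *Thbs1* (0.991) for *Clec4e*, and *Sept7* (0.970) and *Spats2* (0.969) for *Clec4d*. These are the highest of 10500 correlations over 6 libraries that differ in genotype and hepatocyte content, and they are given as a description only.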

How the data were processed

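RNA of liver F4/80-positive cells from 3 WT and 3 Lpcat3 KOMac mice was analysed, with groups and mouse numbers taken from the sample labels. The authors deposited raw read counts per Ensembl gene (featureCounts layout, GRCm38). The submitters' processing notes name Trimmomatic 0.36, STAR 2.5.2b and featureCounts of Subread 1.5.2. The strand setting is not given in the sources used here. No receptor shares exon bases with another gene of the annotation. Which mice shared a litter is not stated, and p-values measure the spread between these mice. Counts were compared with edgeR 4.0.16 (R 4.3.3): TMM, default filter with minimum count 10, robust quasi-likelihood test, genotype as the only term, Benjamini-Hochberg adjustment over 16134 genes, adjusted p under 0.05. Log2 CPM for permutation tests, deviations and correlations used a prior count of 2. Other genes named were those with an unadjusted p under 0.05 in the lists of other lectins, signalling and induced genes, or else the 3 of smallest p, and the 2 most correlated genes per receptor. Marker lists were given by their sums, and the single markers named were chosen after their values were seen. Receptors and lists were chosen with earlier results of these data known. Alternatives were other size factors, filters, DESeq2 1.42.0, limma-voom (limma 3.58.1), dispersion without robust estimation, the replicate number as a block, a hepatocyte covariate, a length offset and leaving out mice. The script was tested on simulated data. Gene symbols came from GENCODE M21, in which 48970 identifiers were found. Lipid, PCR and histology measurements were not analysed here.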

Additional observations from a re-analysis of the deposited data

How the results depend on the processing

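Under 17 alternatives, including 6 that leave out 1 mouse each, 0 of the 9 receptors were called in any. The 4 activating receptors were above 0 in all of them, and the other 5 were below 0 in all except for *Clec12a*, which was at 0.0037 with total counts alone, at 0.0028 without WT mouse 3 and at 0.0196 without Lpcat3 KOMac mouse 2. The number of receptors with an unadjusted p-value under 0.05 was between 0 and 3. The 3 came without both libraries rich in hepatocyte transcripts. There 1767 of 16126 genes tested had such a p-value (edgeR), against 426 of 16134 in the main fit. The median log2 fold change of the receptors was between -0.19 and 0.02 with 1 mouse left out. With total counts alone the median of all genes moved from -0.04 to 0.06. Over all genes, DESeq2 called 12 and edgeR 0. *Lpcat3* (DESeq2, adjusted p = 0.0029) and *Lyz2* (DESeq2, adjusted p = 0.048) were among those 12. Why DESeq2 and edgeR differed was not tested. Without both libraries rich in hepatocyte transcripts, chosen after seeing the data, *Clec7a* was at 0.28 (unadjusted p = 0.189), *Clec4a2* at -0.41 (0.0035; -0.12 with all mice), *Clec10a* at -0.43 (0.0166) and *Clec4a1* at -0.38 (0.0278). With the replicate block the median of the receptors was -0.08, *Clec7a* was at 0.37 (unadjusted p = 0.12) and *Clec10a* at -0.34 (0.0661), and 0 genes were called. With the hepatocyte covariate the median was -0.0088, *Clec7a* was at 0.39 (unadjusted p = 0.0416, edgeR), *Clec10a* at -0.28 (0.0196) and *Clec4a1* at -0.14 (0.239). There 1477 of 16134 genes tested had an unadjusted p-value under 0.05. The deviations of same-numbered mice correlated at -0.30, -0.60 and 0.36, so the numbers were not taken to pair the mice. Small differences in *Clec4e* and *Clec4d* were below what 3 mice against 3 could resolve.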
